A study of Mus musculus with 37 samples.

Results

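The carboxylesterases described here are 10 mouse genes, Ces1c, Ces1d, Ces1e, Ces1f, Ces1g, Ces2a, Ces2c, Ces2e, Ces3a and Ces3b, measured in livers of mice exposed to HFPO-DA. Their probes were found by symbol, which is the first part of each probe name. The members are a part of the family, chosen with earlier results of these data known. A further 10 carboxylesterase genes in the table are described near the end. The 10 members, of 21450 genes, had 16 of the 30146 probes. Ces2a had 4 probes, Ces1c, Ces1g and Ces3b had a pair each, and the other members had 1. Where a gene had several probes, the one with the highest total count is called its lead probe.

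HFPO-DA is a short-chain per- and polyfluoroalkyl substance used as a polymerization aid. Wild-type (WT) mice of the CD1 strain (the outbred stock Crl:CD1(ICR)), were gavaged daily with deionized water (the vehicle, 0 mg/kg) or with HFPO-DA in it at 0.1 mg/kg, 0.5 mg/kg and 5 mg/kg. Males, about 6 weeks old at the first dose, received 84 to 85 doses over the 70 days before mating and the 14 days of mating. Females, about 11 weeks old, received 53 to 65 doses from 14 days before mating to lactation day 20 or 21. All 8 groups were therefore breeding animals, and sex, age, number of doses and lactation cannot be told apart. The libraries of 37 mice were used, 19 males and 18 females, with 5 per group except 4 in the males at 5 mg/kg and in the females at 0.5 and 5 mg/kg.

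RNA was read with TempO-Seq, in which a pair of short oligonucleotides is ligated on its target RNA and the ligated products are counted, from scrapings of formalin-fixed, paraffin-embedded liver sections. Total counts ranged from 2101495 to 10548222 in males and from 7952605 to 13878254 in females. Males at 5 mg/kg had the lowest median, 5117935. Of the 4 shallowest libraries, all male, with 2101495 to 4147445 counts, 2 were from that group, 1 was from the males at 0.1 mg/kg and 1 from those at 0.5 mg/kg. Of the 5 hepatocyte markers in the table, the summed level ranged from 11593 to 22608 CPM over all mice. CPM are counts scaled to library totals after adjustment by the TMM method. The median of the sum was 15311 CPM in vehicle males and 12280 CPM in males at 5 mg/kg. In females it was 21886.5 CPM with the vehicle and 15762 CPM at 5 mg/kg. The median log2 fold change of these markers at 5 mg/kg was -0.29 in males and -0.65 in females. Over all probes it was -0.12 and -0.01. Cps1 fell in males and Ttr in females at that dose. No tested marker of Kupffer cells, stellate cells, cholangiocytes, lymphocytes, adipocytes or blood was called at 5 mg/kg against the vehicle in either sex. Only 3 of 5 cholangiocyte, 3 of 4 blood and 1 of 4 adipocyte markers were tested. The adipocyte marker lay 3.47 above the vehicle on the log2 scale in males, and 2.25 above it in females. The 4 adipocyte markers summed to at most 10.6 CPM in these males and 1.19 CPM in these females. With so few counts the test cannot decide whether they changed. For the blood markers the median log2 fold change was -0.55 (males) and 1.49 (females). Of 5 endothelial markers only Kdr was called, lower in males. The median log2 fold change of the 5 was -0.13 in males and -0.22 in females. Of 4 intestine and pancreas markers only Fabp2, an intestinal fatty acid binding protein, was called, higher in both sexes. The median of these 4 lay the other way, at -0.71 in males and -0.50 in females. Each section is a mixture of cells, so fewer cells of a type and less RNA per cell cannot be told apart.

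Carboxylesterases are serine hydrolases of the endoplasmic reticulum that cleave esters and amides. In liver they hydrolyse ester drugs and other foreign compounds, and several also act on stored triacylglycerol, cholesteryl esters or acyl-CoA. Enzymes of the Ces1 class tend to prefer esters with a large acyl group and a small alcohol group, and those of the Ces2 class the opposite.

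The genes lie in tandem on mouse chromosome 8, and their likeness bears on how their probes can be read. In GRCm38 the Ces1 genes lie on the minus strand between chr8:93020214-93379725, and the genes from Ces2a to Ces4a on the plus strand between chr8:104734003-105150109. Coding sequences of Ces3a and Ces3b were 95.3% identical, those of the 3 Ces2 members 83.0% to 84.0%, and those of the 5 Ces1 members 74.5% to 81.5%. Across subfamilies the identity was 61.3% to 63.8%. Of all stretches of 50 bases in the transcript, 42.2% of those of Ces2c occurred letter for letter in a transcript of another gene. The share was 30.9% for Ces3a, 26.1% for Ces3b, 22.2% for Ces2a and 16.98% for Ces1c, and 1.28% to 3.36% for the other 5 members. The sequences of the probes were not used here, so whether a probe also captured a relative was not tested.

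**Figure D1:**
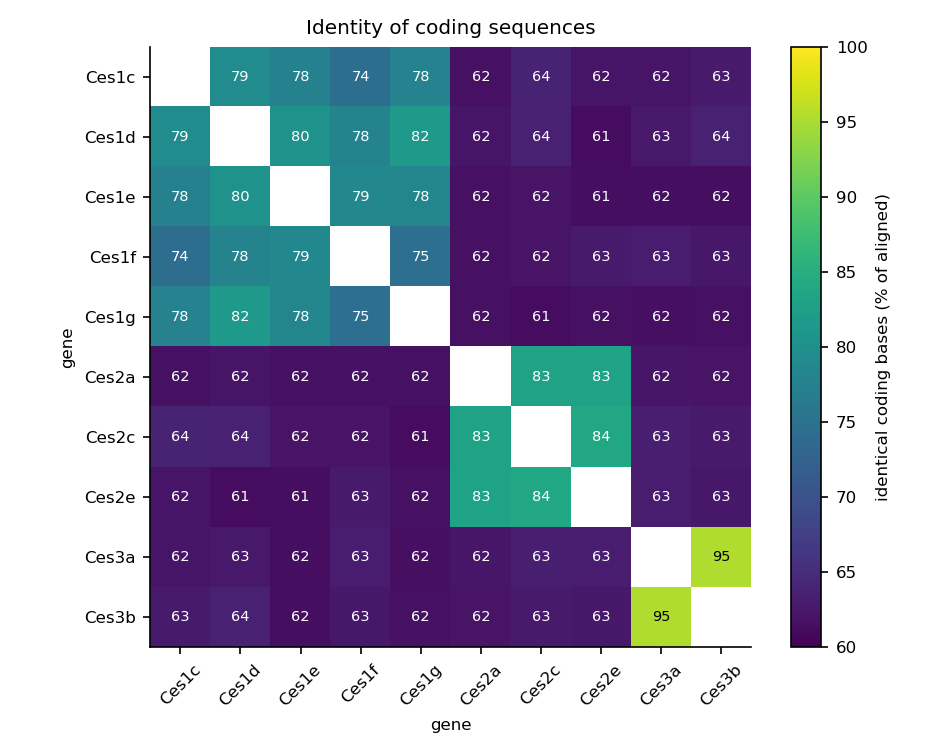
Identity of coding sequences between the 10 carboxylesterases, as a percent of aligned bases. Each axis lists the genes and each square gives 1 pair. Ces3a and Ces3b form the most alike pair at 95.3%, and pairs within Ces2 or within Ces1 are more alike than pairs from different subfamilies.

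The closest pair is shown first, since Ces3a and Ces3b gave different results in spite of it. Their coding sequences of 1713 bases, aligned without gaps, differed at 81 positions. The stretch of 100 bases within 1 exon (exon 6 in both, coding bases 724 to 823, plus strand, GRCm38) that held the most differences, 15, is given here with the differing bases in capitals. It lies at chr8:105051732-105051831 in Ces3a and at chr8:105086822-105086921 in Ces3b.
Ces3a: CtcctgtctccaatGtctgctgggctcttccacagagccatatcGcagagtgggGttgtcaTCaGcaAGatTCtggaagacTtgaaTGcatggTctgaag
Ces3b: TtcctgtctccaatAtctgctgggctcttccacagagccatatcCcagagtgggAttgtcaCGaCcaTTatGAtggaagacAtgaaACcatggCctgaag

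Promoters are shown for the members with the largest log2 fold changes in males at 5 mg/kg among those with a promoter entry, including Ces2a and Ces2c, genes of 1 cluster that moved in opposite directions. RefSeq windows (GRCm38.p6), from 250 bases before to 50 after the start, were found for 7 of the 10 members. The 250 bases before the start are printed. Both strands were searched for AGGTCA (a nuclear receptor half-site), TATAAA (a core promoter box) and GTTAAT (an HNF1 half-site), and for the direct repeat DR1, a pair of AGGTCA half-sites 1 base apart. Matches are in capitals. The windows are chr8:93131284-93131533 (minus strand) for Ces1c, chr8:104733753-104734002 for Ces2a, chr8:104846818-104847067 for Ces2c and chr8:105083505-105083754 for Ces3b (plus strand).
Ces1c: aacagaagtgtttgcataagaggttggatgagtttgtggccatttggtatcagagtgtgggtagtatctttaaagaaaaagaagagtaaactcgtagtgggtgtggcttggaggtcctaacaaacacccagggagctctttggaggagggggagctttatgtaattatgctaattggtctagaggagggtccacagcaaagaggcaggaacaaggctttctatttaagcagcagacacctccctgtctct
Ces2a: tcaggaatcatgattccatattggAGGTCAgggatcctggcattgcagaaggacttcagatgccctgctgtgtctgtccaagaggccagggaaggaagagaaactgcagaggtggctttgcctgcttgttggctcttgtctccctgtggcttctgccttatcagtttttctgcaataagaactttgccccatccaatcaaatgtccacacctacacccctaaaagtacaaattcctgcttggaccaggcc
Ces2c: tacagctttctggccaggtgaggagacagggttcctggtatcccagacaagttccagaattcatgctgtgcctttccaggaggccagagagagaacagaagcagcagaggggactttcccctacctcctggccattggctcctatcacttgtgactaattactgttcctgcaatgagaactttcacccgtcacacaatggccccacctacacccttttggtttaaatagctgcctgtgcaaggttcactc
Ces3b: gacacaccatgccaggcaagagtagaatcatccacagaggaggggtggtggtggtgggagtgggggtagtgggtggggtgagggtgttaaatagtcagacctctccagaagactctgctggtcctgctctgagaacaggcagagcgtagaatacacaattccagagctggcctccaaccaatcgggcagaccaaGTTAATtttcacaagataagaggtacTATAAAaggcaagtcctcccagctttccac

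Among these 4 windows AGGTCA occurred once, in Ces2a, and 16.3% of 32851 promoters of the same length held it. TATAAA and GTTAAT occurred in Ces3b, and 13.6% and 7.10% of promoters held them. The direct repeat occurred in none of the 7 windows found and in 0.0396% of all promoters. The 300-base windows of Ces2a and Ces2c were 69.1% identical, against 57.7% for Ces1c and Ces2a. A match of letters is a description of the sequence only.

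At 5 mg/kg the members did not move as 1 block. Ces1c, Ces2a and Ces3b fell in both sexes and Ces2c rose in both, while Ces1d rose and Ces3a fell in males and Ces1f rose in females. Ces1e, Ces1g and Ces2e were not called at that dose in either sex. In males 11 of the 16 member probes were called, 2 higher and 9 lower, where 12.7% of all 18570 probes tested were called (4.21% higher and 8.49% lower). In females 6 were called, 2 higher and 4 lower, where 4.52% of all probes were called (2.26% higher and 2.26% lower). With each sex fitted apart, 11 member probes were called in females, where 2093 probes were called in all. The median log2 fold change of the 16 probes was -0.90 in males, against -0.12 over all probes, and -0.39 in females, against -0.01. A probe was called where edgeR's quasi-likelihood p, adjusted by the Benjamini-Hochberg procedure over all probes tested, was under 0.10. All 16 member probes passed the filter on low counts. The doses are compared with the same vehicle mice of each sex, so these comparisons share controls.

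**Figure D2:**
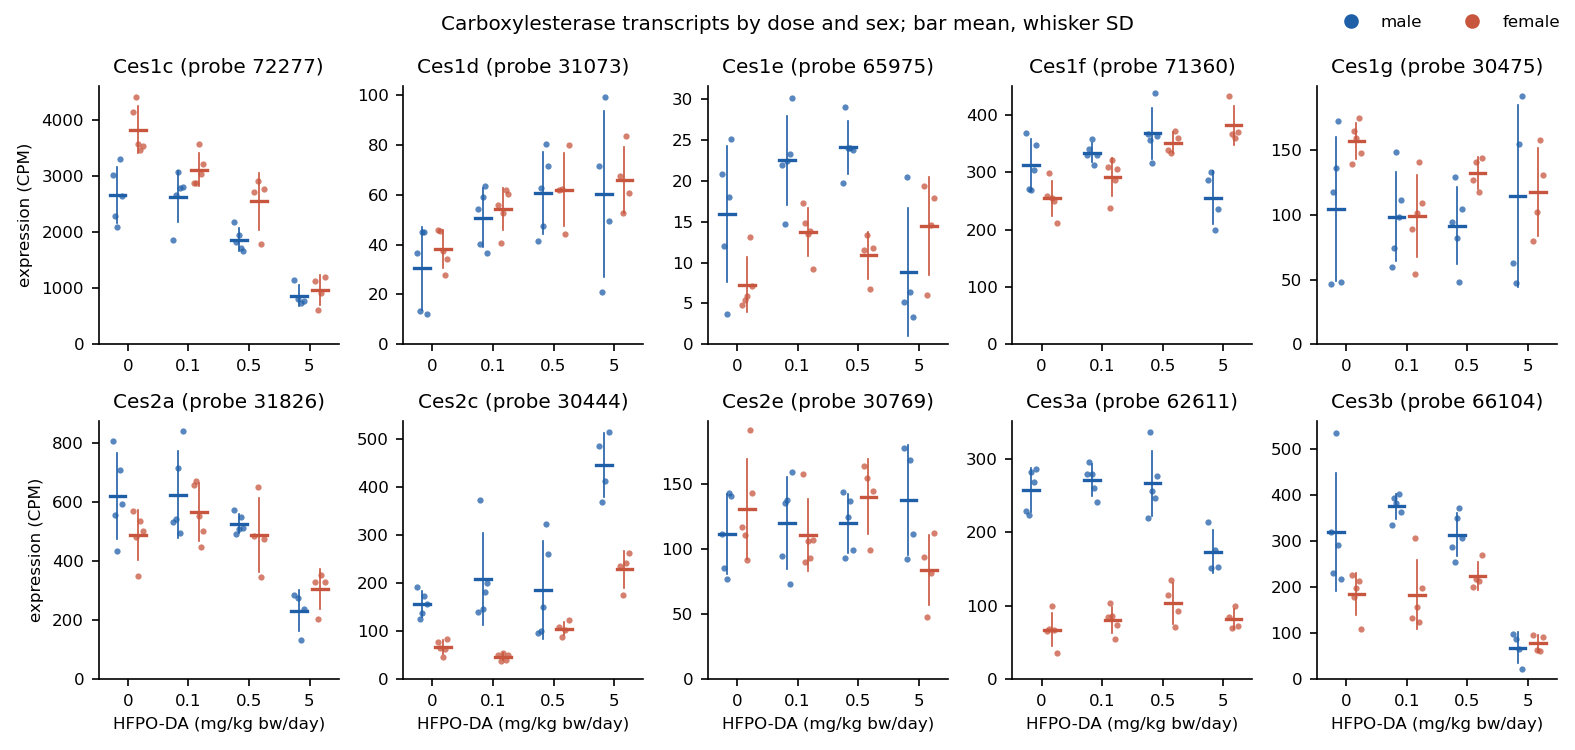
Level of each carboxylesterase by dose, on its lead probe, in CPM on a linear axis from 0. Each point is 1 mouse, males in blue and females in red, with a bar at the group mean and a whisker of 1 SD. The 4 males at 5 mg/kg all lie below the vehicle males for Ces1c, Ces2a, Ces3a and Ces3b and all above them for Ces2c.

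Within the Ces1 class, Ces1c fell furthest and in both sexes. It encodes the carboxylesterase that mouse liver secretes into plasma. On its lead probe (72277) the 5 vehicle males read 3023, 2289, 2093, 3298 and 2646 CPM and the 4 males at 5 mg/kg read 1147, 816, 741 and 767 CPM. The vehicle females read 4141, 4417, 3570, 3467 and 3546 CPM and the females at 5 mg/kg 1130, 609, 908 and 1198 CPM. In each sex every mouse at 5 mg/kg was below every vehicle mouse, which was so for 4.8% of all probes in males and 4.31% in females. In males the log2 fold change was -1.62 (SE 0.18, edgeR adjusted p = 1.9e-08), which is 3.08-fold lower, and -1.99 in females (SE 0.19, edgeR adjusted p = 2.4e-10), which is 3.98-fold lower.

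The other Ces1c probe (64762) fell too, with log2 fold changes in males of -2.20 (SE 0.21, edgeR adjusted p = 2.2e-10) and in females of -2.39 (SE 0.21, edgeR adjusted p = 3.4e-11). At 0.5 mg/kg the group means of both probes lay between those of the vehicle and of 5 mg/kg. Males there read 2181, 1818, 1958, 1712 and 1668 CPM on the lead probe, a log2 fold change of -0.52 against the vehicle (SE 0.17, edgeR adjusted p = 0.22). Females read 2717, 2911, 1788 and 2776 CPM, a log2 fold change of -0.59 (SE 0.18, edgeR adjusted p = 0.61). These differences did not pass the test. The females at 0.5 mg/kg all lay below their vehicle group, as was so for 1.49% of all probes. From 0.5 to 5 mg/kg both probes fell in both sexes, the lead probe by 1.11 on the log2 scale in males (SE 0.18, edgeR adjusted p = 7.4e-05) and by 1.41 in females (SE 0.19, edgeR adjusted p = 5.3e-06).

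Ces1d encodes a triacylglycerol hydrolase that takes part in assembling very low density lipoprotein. Vehicle males read 36.6, 13.4, 45.1, 45.1 and 12.1 CPM, and males at 5 mg/kg 71.7, 21.0, 99.4 and 49.6 CPM. The groups overlapped, with 1 treated mouse below 3 of the vehicle mice. It had a log2 fold change of 0.98 (SE 0.32, edgeR adjusted p = 0.050). Without the 4 shallow libraries, which include the 2 highest of these treated mice, it was 0.16 (edgeR adjusted p = 0.88). The call also ended without vehicle replicate 2 or 5, or replicate 1 or 3 at 5 mg/kg (edgeR adjusted p = 0.14 to 0.27), and with each sex fitted apart (edgeR adjusted p = 0.17). Females at 5 mg/kg read 67.5, 52.5, 83.8 and 60.6 CPM. All lay above the vehicle range of 27.9 to 45.9 CPM, as on 4.4% of all probes. The log2 fold change was 0.79 (SE 0.32, edgeR adjusted p = 0.23). Fitted without the males, the female difference passed the test (log2 fold change 0.79, edgeR adjusted p = 0.011).

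Ces1f encodes another hydrolase of stored triacylglycerol. It was the 1 member for which a difference in response between the sexes was called. Females at 5 mg/kg read 433, 367, 359 and 370 CPM, against 260, 298, 255, 251 and 212 CPM in vehicle females. All treated females lay above the vehicle females, as on 4.4% of all probes. Males at 5 mg/kg read 286, 301, 200 and 235 CPM, against 370, 271, 270, 304 and 349 CPM in vehicle males, with overlap. Its log2 fold change was 0.58 in females (SE 0.14, edgeR adjusted p = 0.0081) and -0.29 in males (SE 0.14, edgeR adjusted p = 0.21). The difference between the sexes, male minus female, was -0.87 (SE 0.20, edgeR adjusted p = 0.029), and 0.63% of all probes were called in that test (0.463% as lower). The call ended with no filter on low counts (edgeR adjusted p = 0.11), and without the 4 shallow libraries Ces2a probe 65564 was called in this test as well (edgeR adjusted p = 0.026). Estimates of about that size or larger that were not called were those of Ces1e (-1.81), Ces2e (0.95), Ces3a (-0.85) and Ces3b (-0.98). Ces2a probes 65564 (-1.03) and 78586 (-1.08) and Ces3b probe 72734 (-1.21) were also among them. Their edgeR adjusted p-values were 0.25 to 0.37, except for 0.82 on Ces3b probe 72734. The median over the 16 member probes was -0.53, against -0.12 over all probes. At 0.5 mg/kg no member was called in this test, where 0.0108% of all probes were.

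In males Ces1f had its highest mean at 0.5 mg/kg, 368 ± 44.5 CPM (SD, n = 5), where the difference from the vehicle was not called (log2 fold change 0.24, edgeR adjusted p = 0.59). It fell from there to 5 mg/kg by 0.53 on the log2 scale (SE 0.14, edgeR adjusted p = 0.023), a call that ended without replicate 3 at 5 mg/kg (0.11) or without the 4 shallow libraries (0.14). In females the mean at 0.5 mg/kg was 352 ± 18.05 CPM (SD, n = 4), with a log2 fold change of 0.46 that was not called (edgeR adjusted p = 0.62). All 4 of these females lay above the vehicle females, as was so for 1.52% of all probes (1.49% had them below).

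Ces1e, which encodes egasyn, the protein that holds beta-glucuronidase in the endoplasmic reticulum, had few counts. Vehicle males read 3.75 to 25.2 CPM, with a median of 18.1, and males at 5 mg/kg 5.19, 20.5, 6.38 and 3.40 CPM. Vehicle females read 4.82 to 13.2 CPM and females at 5 mg/kg 19.4, 6.02, 14.7 and 17.9 CPM. The log2 fold changes, -0.82 in males (edgeR adjusted p = 0.25) and 0.99 in females (edgeR adjusted p = 0.27), did not pass the test, although the female one did with each sex fitted apart (edgeR adjusted p = 0.065). Without replicate 2 of the males at 5 mg/kg, the highest of the 4, the male value was -1.73 (edgeR adjusted p = 0.012), and without vehicle replicate 3 it was -1.10 (edgeR adjusted p = 0.091). From 0.5 to 5 mg/kg Ces1e fell in males by 1.41 on the log2 scale (SE 0.44, edgeR adjusted p = 0.049). That call ended without the 4 shallow libraries (edgeR adjusted p = 0.37) and with each sex fitted apart (edgeR adjusted p = 0.13). It also ended without any 1 of replicates 1, 3 and 4 at 5 mg/kg (edgeR adjusted p = 0.12 to 0.13).

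Ces1g, an esterase known for its part in hepatic fat storage and output, was called in no comparison on either probe. On its lead probe (30475) vehicle males ranged from 46.4 to 173 CPM and males at 5 mg/kg from 47.3 to 192 CPM. Vehicle females lay between 140 and 175 CPM and females at 5 mg/kg between 80.1 and 158 CPM. Its spread within male groups was wide and shared by both probes. The correlation of the 2 probes, taken as deviations of log2 CPM from the group means over 37 mice, was r = 0.86.

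Within the Ces2 class, Ces2a and Ces2c went opposite ways. Ces2a encodes a hydrolase of di- and triacylglycerol and of ester drugs. On its lead probe (31826) vehicle males read 807, 555, 432, 708 and 593 CPM and males at 5 mg/kg 284, 274, 132 and 236 CPM. No male at 5 mg/kg reached the lowest vehicle male. This was a log2 fold change of -1.42 (SE 0.21, edgeR adjusted p = 6.4e-06), which is 2.67-fold lower.

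The other 3 Ces2a probes also fell in males at 5 mg/kg, by 0.99 (probe 31253), 1.31 (probe 78586) and 1.39 (probe 65564) on the log2 scale, with edgeR adjusted p-values of 0.0074, 0.0041 and 0.0010. Each of the 4 probes had every treated male below every vehicle male, as had 4.8% of all probes. The values at 0.1 and 0.5 mg/kg stayed near the vehicle's, with males at 0.5 mg/kg at 526 ± 32.98 CPM (SD, n = 5) on the lead probe against 619 ± 144 CPM (SD, n = 5).

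Vehicle females read 568, 480, 350, 535 and 501 CPM on the Ces2a lead probe and females at 5 mg/kg 328, 203, 353 and 329 CPM. The groups overlapped by 1 mouse each. The log2 fold change was -0.68 (SE 0.21, edgeR adjusted p = 0.057). The call ended without any 1 of 3 mice (edgeR adjusted p = 0.14 without vehicle replicate 1, 0.12 without vehicle replicate 4 and 0.28 without replicate 2 at 5 mg/kg). The other 3 probes had log2 fold changes from -0.66 to -0.23 and were not called. On probe 31253 every female at 5 mg/kg lay below every vehicle female, as on 4.31% of all probes, and the difference passed the threshold with DESeq2 (adjusted p = 0.065), with each sex fitted apart (edgeR adjusted p = 0.039) and without the 4 shallow libraries (edgeR adjusted p = 0.084). The difference in response between the sexes on the lead probe, -0.73 (SE 0.29), was not called (edgeR adjusted p = 0.37).

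Ces2c encodes a triacylglycerol hydrolase of intestine and liver. Vehicle males read 192, 125, 138, 173 and 157 CPM and males at 5 mg/kg 487, 370, 413 and 515 CPM. Vehicle females read 77.2, 64.9, 46.7, 62.4 and 83.3 CPM and females at 5 mg/kg 235, 175, 241 and 263 CPM. In both sexes every mouse at 5 mg/kg was above every vehicle mouse, which was so for 2.78% of all probes in males and 4.4% in females. The log2 fold change was 1.51 in males (SE 0.26, edgeR adjusted p = 7.8e-05), or 2.84-fold, and 1.77 in females (SE 0.26, edgeR adjusted p = 8.6e-06), or 3.42-fold.

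At 0.5 mg/kg the females read 108, 88.7, 103 and 122 CPM of Ces2c, all above the vehicle females, as on 1.52% of all probes. The log2 fold change of 0.66 was not called (SE 0.26). Males at 0.5 mg/kg were scattered, at 95.6, 99.9, 150, 323 and 260 CPM, and 1 male at 0.1 mg/kg read 373 CPM. From 0.5 to 5 mg/kg Ces2c rose in males by 1.26 on the log2 scale (SE 0.26, edgeR adjusted p = 0.0020) and in females by 1.12 (SE 0.28, edgeR adjusted p = 0.029). The female call ended without replicate 2 at 0.5 mg/kg (edgeR adjusted p = 0.14).

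The ratio of Ces2c to Ces2a counts within a library (lead probes) does not depend on the scaling between libraries. It was 0.225 to 0.321 in vehicle males and 1.35 to 3.13 in males at 5 mg/kg. In females it was 0.117 to 0.166 with the vehicle and 0.684 to 0.861 at 5 mg/kg. In each sex the ratios at 5 mg/kg lay above those of all mice at the lower doses. The counts of 2 probes do not compare the amounts of 2 transcripts, because probes differ in efficiency, so only the change of the ratio is read.

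Ces2e, another Ces2-class esterase, was not called against the vehicle. Vehicle males ranged from 77.0 to 143 CPM and males at 5 mg/kg read 178, 92.0, 169 and 112 CPM. Vehicle females ranged from 91.6 to 192 CPM and females at 5 mg/kg read 93.7, 48.0, 81.5 and 112 CPM. The log2 fold changes were 0.30 in males (SE 0.25, edgeR adjusted p = 0.52) and -0.64 in females (SE 0.25, edgeR adjusted p = 0.21). The male value was -0.17 without the 4 shallow libraries. The female difference passed the threshold with DESeq2 (adjusted p = 0.0997) and with each sex fitted apart (edgeR adjusted p = 0.0992).

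**Figure D3:**
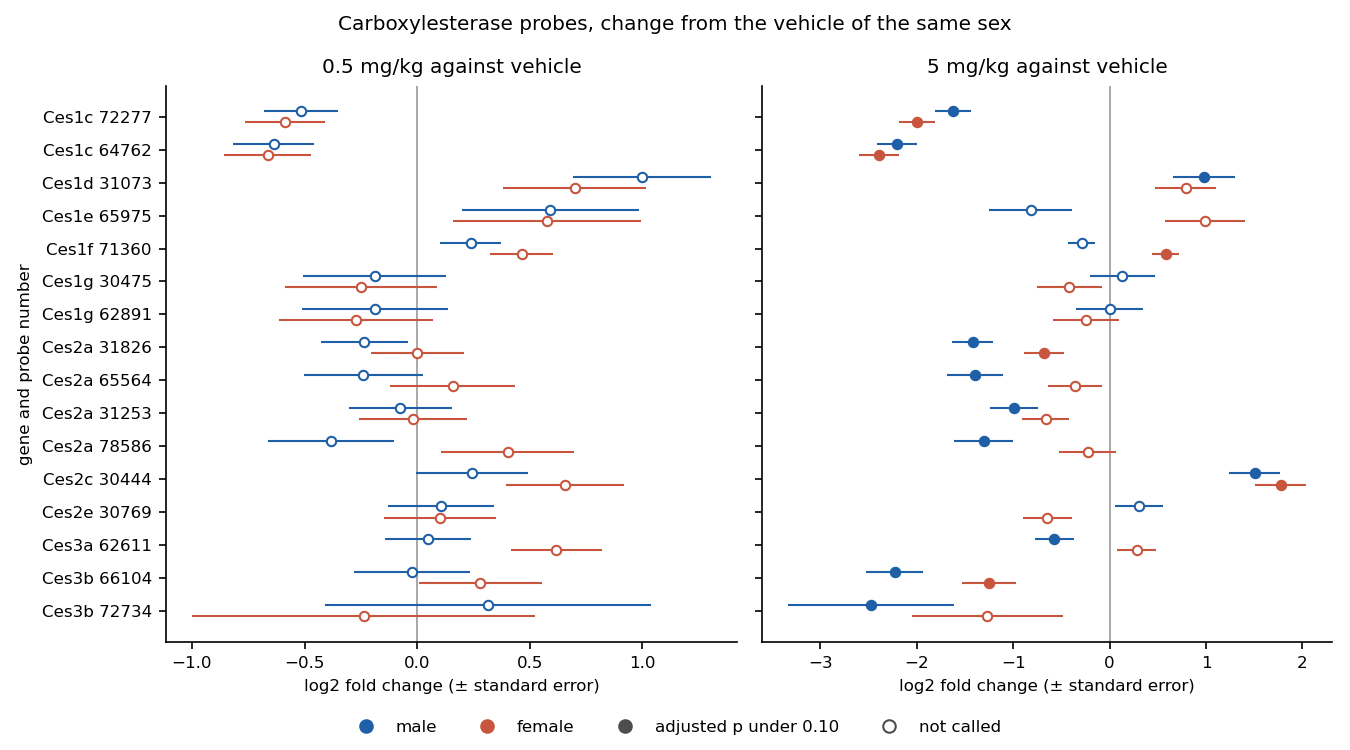
Change of each carboxylesterase probe from the vehicle of the same sex at 0.5 mg/kg (left) and 5 mg/kg (right), as log2 fold change with its standard error; the panels have different scales. Filled points have an edgeR adjusted p under 0.10. No probe is filled at 0.5 mg/kg, and at 5 mg/kg 11 male and 6 female points are filled.

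The nearly identical Ces3 pair gave unequal changes. Ces3a and Ces3b encode liver esterases that are less studied than those of the other classes. On the lead probe of Ces3b (66104) vehicle males read 319, 230, 534, 290 and 217 CPM and males at 5 mg/kg 97.6, 87.5, 64.5 and 22.1 CPM. Vehicle females read 225, 179, 198, 213 and 109 CPM and females at 5 mg/kg 95.9, 62.7, 61.6 and 90.2 CPM. In each sex every treated mouse was below every vehicle mouse, as on 4.8% of all probes in males and 4.31% in females. The log2 fold change was -2.23 in males (SE 0.30, edgeR adjusted p = 6.1e-07), which is 4.69-fold lower, and -1.25 in females (SE 0.28, edgeR adjusted p = 0.0040), which is 2.38-fold lower.

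The larger value of Ces3b in males was not called as a difference between the sexes (-0.98, SE 0.39, edgeR adjusted p = 0.37). At 0.5 mg/kg its level was 313 ± 47.1 CPM in males (SD, n = 5) and 224 ± 30.5 CPM in females (SD, n = 4), near the vehicle means of 318 ± 128 and 185 ± 45.4 CPM (SD, n = 5 each). From 0.5 to 5 mg/kg the log2 fold change was -2.21 in males (SE 0.30, edgeR adjusted p = 2.5e-06) and -1.53 in females (SE 0.30, edgeR adjusted p = 0.0018). The other Ces3b probe (72734) read 0 to 13.8 CPM over all mice and was called lower in males at 5 mg/kg (log2 fold change -2.47, SE 0.86, edgeR adjusted p = 0.066). That call ended without the 4 shallow libraries (edgeR adjusted p = 0.26), with no filter (0.13), with each sex fitted apart (0.24), and without vehicle replicate 3 or replicate 1 or 3 at 5 mg/kg (0.12 to 0.15). In females at 5 mg/kg probe 72734 overlapped with the vehicle and was not called (log2 fold change -1.27, SE 0.79, edgeR adjusted p = 0.63). The female difference passed the threshold with each sex fitted apart (edgeR adjusted p = 0.0998).

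Ces3a read 229, 224, 283, 268 and 287 CPM in vehicle males and 214, 152, 176 and 152 CPM in males at 5 mg/kg. All treated males lay below the vehicle males, as on 4.8% of all probes. The log2 fold change was -0.57 (SE 0.20, edgeR adjusted p = 0.075). The call ended with DESeq2's size factors (-0.47, edgeR adjusted p = 0.17), with DESeq2 (-0.47, adjusted p = 0.15), with no filter (-0.58, edgeR adjusted p = 0.11) and after thinning to the smallest total (-0.51, edgeR adjusted p = 0.12). It also ended without vehicle replicate 3 or 5, or replicate 2, 3 or 4 at 5 mg/kg (edgeR adjusted p = 0.11 to 0.14). In females at 5 mg/kg Ces3a read 84.6, 69.9, 99.2 and 72.3 CPM, within the vehicle range of 35.6 to 99.4 CPM, with a log2 fold change of 0.28 (edgeR adjusted p = 0.76).

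The ratio of Ces3b to Ces3a counts in a library was 0.759 to 1.89 in vehicle males and 0.145 to 0.577 in males at 5 mg/kg. In females it was 1.99 to 3.43 with the vehicle and 0.621 to 1.25 at 5 mg/kg. The treated mice lay below the vehicle mice in both sexes, so the 2 probes gave unequal changes within the same libraries.

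**Figure D4:**
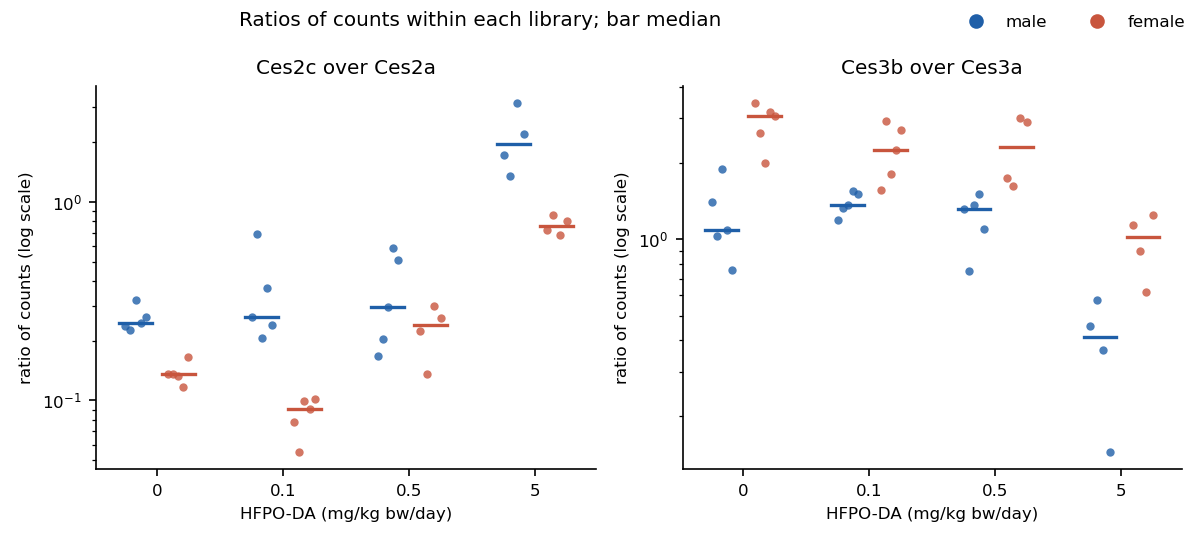
Ratio of counts within each library, Ces2c over Ces2a (left) and Ces3b over Ces3a (right), by dose on log axes. Each point is 1 mouse, males in blue and females in red, and bars are group medians. At 5 mg/kg the Ces2c to Ces2a ratio reached 1.35 to 3.13 in males and 0.684 to 0.861 in females, above every vehicle mouse of the same sex.

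The lower doses gave no calls among the members. At 0.1 mg/kg 0 of 16 member probes were called in either sex, where 0% of all probes were called, and an unadjusted edgeR p under 0.05 was found for 1 member probe in males and for 3 in females, against 7.14% and 2.38% of all probes. At 0.5 mg/kg 0 were called in males, where 0.625% of all probes were called, and 0 in females, where 0.113% were. At an unadjusted p under 0.05 there were 3 and 6, against 10.3% and 4.33% of all probes. With DESeq2, 2 member probes in males (Ces1c probe 64762 and Ces1d) and 3 in females (both Ces1c probes and Ces1f) passed the threshold at 0.5 mg/kg, and 0 passed at 0.1 mg/kg. DESeq2 called 319 probes in all at 0.5 mg/kg in males and 76 in females. From 0.5 to 5 mg/kg, 12 member probes were called in males (1 higher and 11 lower, against 8.73% of all probes, 3.16% higher and 5.57% lower) and 4 in females (1 higher and 3 lower, against 1.48% of all probes, 0.635% higher and 0.84% lower). The male count was 7 without replicate 3 at 5 mg/kg and 7 without the 4 shallow libraries.

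The vehicle mice also differed by sex in 3 members, where 2.6% of all probes were called (1.24% higher in males and 1.36% lower). Ces3a was 3.84-fold higher in males, 258 ± 29.8 CPM (SD, n = 5) against 67.1 ± 22.6 CPM in females (SD, n = 5), a log2 difference of 1.94 (SE 0.20, edgeR adjusted p = 1.4e-09). The lowest vehicle male, at 224 CPM, was above the highest vehicle female, at 99.4 CPM, and 1.54% of all probes had every vehicle male above every vehicle female (2.46% had them below). Ces2c was 2.35-fold higher in males, a log2 difference of 1.23 (SE 0.25, edgeR adjusted p = 0.0018). Ces1c was lower in males on probe 64762, with a log2 difference of -0.98 (SE 0.18, edgeR adjusted p = 0.00046), and its lead probe gave -0.52 (SE 0.17, edgeR adjusted p = 0.12). With DESeq2 8 member probes were called in this comparison, and 5 without the 4 shallow libraries. Blood markers summed to 56.7 to 112 CPM in vehicle males and 0.885 to 10.9 CPM in vehicle females, and Alas2 was called higher in males. The hepatocyte marker Alb was called lower in vehicle males, where the 5 hepatocyte markers had a median log2 difference of -0.08. The part of blood and hepatocyte markers in the member differences was not tested.

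From mouse to mouse within groups, most pairs of members were weakly correlated. Taken as deviations of log2 CPM from the group means over 37 mice, the 45 pairs of lead probes had correlations from -0.48 to 0.61, with a median of 0.12. The 2 Ces1c probes correlated at r = 0.79 on this measure. Over all 37 mice, group differences included, the genes whose log2 CPM was most like that of Ces3a were Mup8 (r = 0.93), Mup20 (r = 0.93) and Mup13 (r = 0.93), which encode major urinary proteins. Mup genes are near-identical copies, so their probes may share reads. For Ces1c they were Ugt2a3 (r = 0.91), Amy1 (r = 0.89) and Gm45753 (r = 0.88). For Ces2a they were Gm45753 (r = 0.88), Cyp2c29 (r = 0.87) and Cfhr2 (r = 0.85). Those nearest to Ces2c were Ndufa1 (r = 0.86), Hprt (r = 0.86) and Ugdh (r = 0.86), and those nearest to Ces3b were Gm10681 (r = 0.89), Cmah (r = 0.88) and Serpina1d (r = 0.86). For the other 5 members the highest r was 0.59 to 0.70. These correlations were taken from 12986 genes over mice that share dose groups and libraries, and are a description.

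Of the 10 other carboxylesterase genes in the table, 8 had a probe that passed the filter. At 5 mg/kg 1 of them was called in males, where 12.7% of all probes were, and 0 in females, where 4.52% were. This was Ces2d-ps, an unprocessed pseudogene next to Ces2c, which had 0 counts in all 5 vehicle males and 0, 22, 1 and 14 counts in the males at 5 mg/kg. The males at 0.1 mg/kg had 0, 6, 16, 0 and 4 counts, and those at 0.5 mg/kg had 0 in every mouse. Vehicle females had 9, 10, 8, 0 and 0 counts and females at 5 mg/kg 0, 43, 30 and 21, without a call. Ces2d-ps shares stretches of 50 bases with Ces2c, and whether its probe captured Ces2c RNA was not tested. Ces1b (15 to 511 counts), Ces2b (42 to 464 counts on probe 29770) and Ces2g (18 to 394 counts) had counts in all 37 mice and were not called at 5 mg/kg in either sex. Females at 5 mg/kg read 7.75 to 19.5 CPM of Ces1b and vehicle females 22.9 to 49.3 CPM. All treated females lay below the vehicle females, as on 4.31% of all probes. The log2 fold change was -1.36 (SE 0.48, edgeR adjusted p = 0.14).

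Among 20 other esterases and lipases of the liver, 6 rose and 4 fell in males at 5 mg/kg, and 6 rose and 2 fell in females. Of all probes, 4.21% rose and 8.49% fell in males, and 2.26% rose and 2.26% fell in females. Those called higher in both sexes were Abhd6, Ephx1, Ephx2, Mgll and Nceh1. The male log2 fold change of Mgll, the monoacylglycerol lipase, was 2.48 (SE 0.20, edgeR adjusted p = 9.3e-12) and the female one 1.23 (SE 0.20, edgeR adjusted p = 3.8e-05). Lipc, the hepatic lipase, and Pon1, the plasma paraoxonase, were lower in both. For Lipc the male value was -0.64 and the female value -0.72, with edgeR adjusted p-values of 0.042 and 0.036. The median log2 fold change of the 20 genes was 0.09 in males and 0.35 in females. Of 12 regulators known to act on carboxylesterase genes, Foxo1 and Nr1h4, the bile acid receptor, fell in males and Rxra in females at 5 mg/kg, and none rose, where 12.7% of all probes were called in males and 4.52% in females. Foxo1 had a log2 fold change of -1.98 (SE 0.54, edgeR adjusted p = 0.014), and the values of Nr1h4 and Rxra were -0.53 and -0.55 (edgeR adjusted p = 0.085 and 0.044). Rxra in males, with a mean of 1026 CPM at 5 mg/kg against 1370 CPM with the vehicle, missed the threshold narrowly (log2 fold change -0.42, SE 0.16, edgeR adjusted p = 0.1002).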

How the data were processed

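The deposited table held read counts per TempO-Seq probe, made by the authors from demultiplexed reads; the submitters' processing notes name bcl2fastq 2.17.1.14 and Bowtie, and the genome build of the probes is not given in the sources used here. The authors left out 3 of 40 libraries on depth and probe criteria. The test was that of edgeR 4.0.16 under R 4.3.3 (filterByExpr over 8 groups, TMM, 1 mean per group of sex and dose, quasi-likelihood test, 18570 probes, adjusted p under 0.10). CPM are counts scaled to TMM-adjusted library totals. Total counts per library ranged from 2101495 to 13878254. Alternatives were DESeq2 1.42.0, other scaling, filters, thinning, summed probes, separate sexes, and leaving out mice; the fit was tested on simulated data. Replicates are separate animals, numbered in the order of the records, and no batch is labelled. Every member probe is described, each gene on its lead probe. The 3 genes most like a member are by Pearson r. Gene positions and coding sequences are from GENCODE on GRCm38 and promoters from RefSeq. Members and lists were chosen with earlier results of these data known.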

Additional observations from a re-analysis of the deposited data

Results flagged for a closer look

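In 4 of 128 groups of a member probe, 1 mouse stood far from the others. The distance was judged on the logarithm of CPM with 1 added, so the CPM printed here do not show it directly. Chance alone gives about 1 such group in 20. On the Ces1c lead probe, replicate 1 of the males at 0.1 mg/kg read 1856 CPM, against 2662 to 3068 CPM in the other 4. Replicate 3 of the females at 0.5 mg/kg read 1788 CPM on the same probe, against 2717 to 2911 CPM. For Ces1f, replicate 1 of the females at 5 mg/kg read 433 CPM, against 359 to 370 CPM. For the Ces2a lead probe, replicate 2 of the females at 5 mg/kg read 203 CPM, against 328 to 353 CPM, and the female call ended without it.

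The response of Ces1f to 5 mg/kg differed between the sexes by -0.87 on the log2 scale, male minus female (SE 0.20, edgeR adjusted p = 0.029). The call ended with no filter on low counts (edgeR adjusted p = 0.11).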

How the results depend on the processing

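The calls of Ces1c, Ces2c and the Ces3b lead probe in both sexes, of Ces2a in males and of Ces1f in females at 5 mg/kg against the vehicle held under every alternative run. The male calls of Ces1d, Ces3a and Ces3b probe 72734 and the female call of Ces2a did not hold under all of them. TMM placed the median of all probes at -0.12 (log2) in males at 5 mg/kg, and DESeq2's size factors at -0.03. The 4 shallow libraries are all male, 2 of them at 5 mg/kg, so leaving them out leaves 2 males at that dose. No paired analysis was possible because the labels give animal numbers and no replicate numbers shared between groups.

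Counts of member probes called moved as follows; the cause was not tested, except that summing the probes of a gene leaves 10 features and removing libraries leaves fewer mice. In males at 0.5 mg/kg the count of 0 became 2 with no filter, 1 with a robust fit and 2 with DESeq2. In females at 0.5 mg/kg it became 3 with DESeq2. In males at 5 mg/kg the count of 11 became 6 of 10 with probes summed, and in females the count of 6 became 11 with each sex fitted apart. Between 0.5 and 5 mg/kg in males 12 became 7 without the 4 shallow libraries and 7 with probes summed. For the difference between sexes at 5 mg/kg, 1 became 0 with no filter and 2 without the shallow libraries. The alternatives for the Ces1f difference itself were added after its call was seen; it lost its call with no filter (-0.87, edgeR adjusted p = 0.11). Between vehicle males and females 3 became 5 with no filter, 8 with DESeq2 and 5 without the shallow libraries.

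Leaving out 1 mouse at a time gave 0 to 1 calls for males at 0.5 mg/kg (1 without vehicle male replicate 3 or female replicate 2 at 5 mg/kg), 8 to 11 for males and 5 to 7 for females at 5 mg/kg, 7 to 12 in males (7 without replicate 3 at 5 mg/kg) and 3 to 5 in females between the upper doses, 1 to 2 for the difference between sexes at 5 mg/kg (2 without vehicle male replicate 3 or male replicate 1 or 2 at 5 mg/kg) and 3 to 4 between vehicle groups.

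The changes of sign were all in log2 fold changes that were not called. Ces1c in males at 0.1 mg/kg was 0.010 with DESeq2's size factors and with DESeq2. Ces3b in males at 0.5 mg/kg was 0.00859 with the size factors, 0.00852 with DESeq2 and 0.041 without the shallow libraries, where Ces3a at 0.5 mg/kg was -0.050 and Ces2e at 5 mg/kg was -0.17. Ces3b in females at 0.1 mg/kg was 0.048 after thinning to the smallest total. With 1 mouse left out, the values in males at 0.1 mg/kg ran from -0.081 to 0.097 for Ces1c, from -0.26 to 0.19 for Ces1g, from -0.11 to 0.14 for Ces2a and from -0.00061 to 0.26 for Ces2e. In males at 0.5 mg/kg they ran from -0.37 to 0.082 for Ces1g, from -0.050 to 0.42 for Ces2c, from -0.049 to 0.13 for Ces3a and from -0.13 to 0.25 for Ces3b. Ces1g in males at 5 mg/kg ran from -0.27 to 0.36, Ces3b in females at 0.1 mg/kg from -0.28 to 0.097, and Ces2a in females at 0.5 mg/kg from -0.17 to 0.14.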
